A study of Rattus norvegicus with 35 samples.

Results

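Retinoic acid is made from vitamin A in a short series of steps, and 9 rat genes of that system were followed in the olfactory epithelium: Rdh10, Aldh1a1, Aldh1a2 and Aldh1a3 of synthesis, Rbp4, Crabp1 and Crabp2 of binding, and the receptors Rara and Rarb. Probes were taken when the gene name in the scanner files, or the symbol in brackets in the description of the probe, was one of these symbols. All 9 genes were found, on 10 of the 41012 probes of the array, Rarb having 2 probes. The Crabp1 probe carries the name Crabp1 with the ending "_mapped", which was dropped. The rats were Brown Norway rats in 3 age groups. The newborn group held 19 pups of 3-5 days, of unknown sex and with 1 array each, from 4 litters (4 pups of L1 and 5 each of L2, L3 and L4). The adult group held 4 males of 9 weeks and the old group 4 males of 22 months. Each of these rats had 2 arrays (A and B, from different nostrils) that were averaged, so that the rat was the replicate. The labels name no treatment, and the comparisons ask which transcripts differ between these ages and between litters.

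Retinol travels in blood bound to retinol-binding protein and is oxidised in cells to retinaldehyde by dehydrogenases such as Rdh10. Retinaldehyde is then oxidised irreversibly to retinoic acid by the Aldh1a enzymes. Cellular carriers of the Crabp family hold retinoic acid, and the retinoic acid receptors, paired with retinoid X receptors, bind DNA and change transcription when they bind it. In the olfactory system this signal is known for its roles in the growth of the nose and in the renewal of sensory neurons from basal progenitors.

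A level is given as the log2 of the background-subtracted intensity of a probe over the median of its array, so that 0 is the level of the median probe; levels of different probes are not set against each other. The median intensity of the arrays was 42.1-87.7 for pups, 81.6-162 for adult rats and 37.1-55.3 for old rats, and 24484-28361 probes were above background on an array. Adult arrays were scanned on days of their own (scan days 1 and 2), L1 and the old rats shared 1 scan day, while the remaining days held the other litters, so age and scan day cannot be told apart except between L1 and old rats. Even there, L1 was on slide 3 and the old rats on slides 4 and 5, so age and slide cannot be told apart. L1 is also a single litter, so litter and age cannot be told apart in that comparison. The precision is limited by the 4 adult and 4 old rats and the 4 litters, and for dim probes by the background. The markers of the tissue were present: the 5 markers of mature olfactory sensory neurons (Omp, Gnal, Cnga2, Adcy3 and Cnga4) were each above background on at least 1 array of every group, with a summed intensity of 166-373 times the array median for pups, 972-1319 for adult rats and 1314-1758 for old rats. Because the tissue is a mixture, fewer cells of a type and less RNA per cell cannot be told apart. Differences were tested with limma across all probes and called at an adjusted p under 0.01. Each litter was its own group in the fit. The SE and adjusted p of newborn rats therefore rest on the spread among rats within groups, not among litters. The litter means were taken as replicates, as an alternative, for the members only.

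Newborn epithelium had less Rarb than adult or old epithelium, by 3.90-fold and 3.997-fold, and more Crabp1 and Crabp2 than adult epithelium, by 2.93-fold and 3.11-fold. Old rats stood between newborn and adult rats for both Crabp genes. Aldh1a1 had its highest mean level in old rats, although its adult-old difference did not pass the test. Aldh1a3 and Rara did not pass the test in any of the 3 age comparisons. Between newborn and adult rats 5 of the 9 members were called, 3 higher in newborn (Rbp4, Crabp1, Crabp2) and 2 lower (Rarb, Aldh1a2), while 46.8% of all probes were called, 27% higher and 19.9% lower, and 62.1% of the probes expressed in at least 1 group. Between newborn and old rats 5 were called, 3 higher (Rdh10, Crabp1, Crabp2) and 2 lower (Aldh1a1, Rarb), against 43.5% of all probes (20.6% higher, 22.8% lower) and 57.1% of expressed probes. Between adult and old rats 3 were called, Rdh10 higher in adult rats and Crabp1 and Crabp2 lower, against 32.4% of all probes (11.8% higher, 20.6% lower) and 42.9% of expressed probes. Between L1 and old rats, on 1 scan day, 2 were called, both lower in L1 (Aldh1a1, Rarb), against 32.6% of all probes (13.6% higher, 19% lower) and 44.3% of expressed probes. The rats of the 2 groups did not overlap in 3 of the 9 members between newborn and adult rats (26.7% of all probes), in 2 between newborn and old rats (22.3%), in 5 between adult and old rats (43.6%) and in 2 between L1 and old rats (41.9%). The median log2 difference of the members was -0.05, 0.29 and -0.16 in the 3 age comparisons, and that of all probes 0.10, -0.04 and -0.13. The share of members called was near that of the whole array, so the values below are those of single genes.

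**Figure D1:**
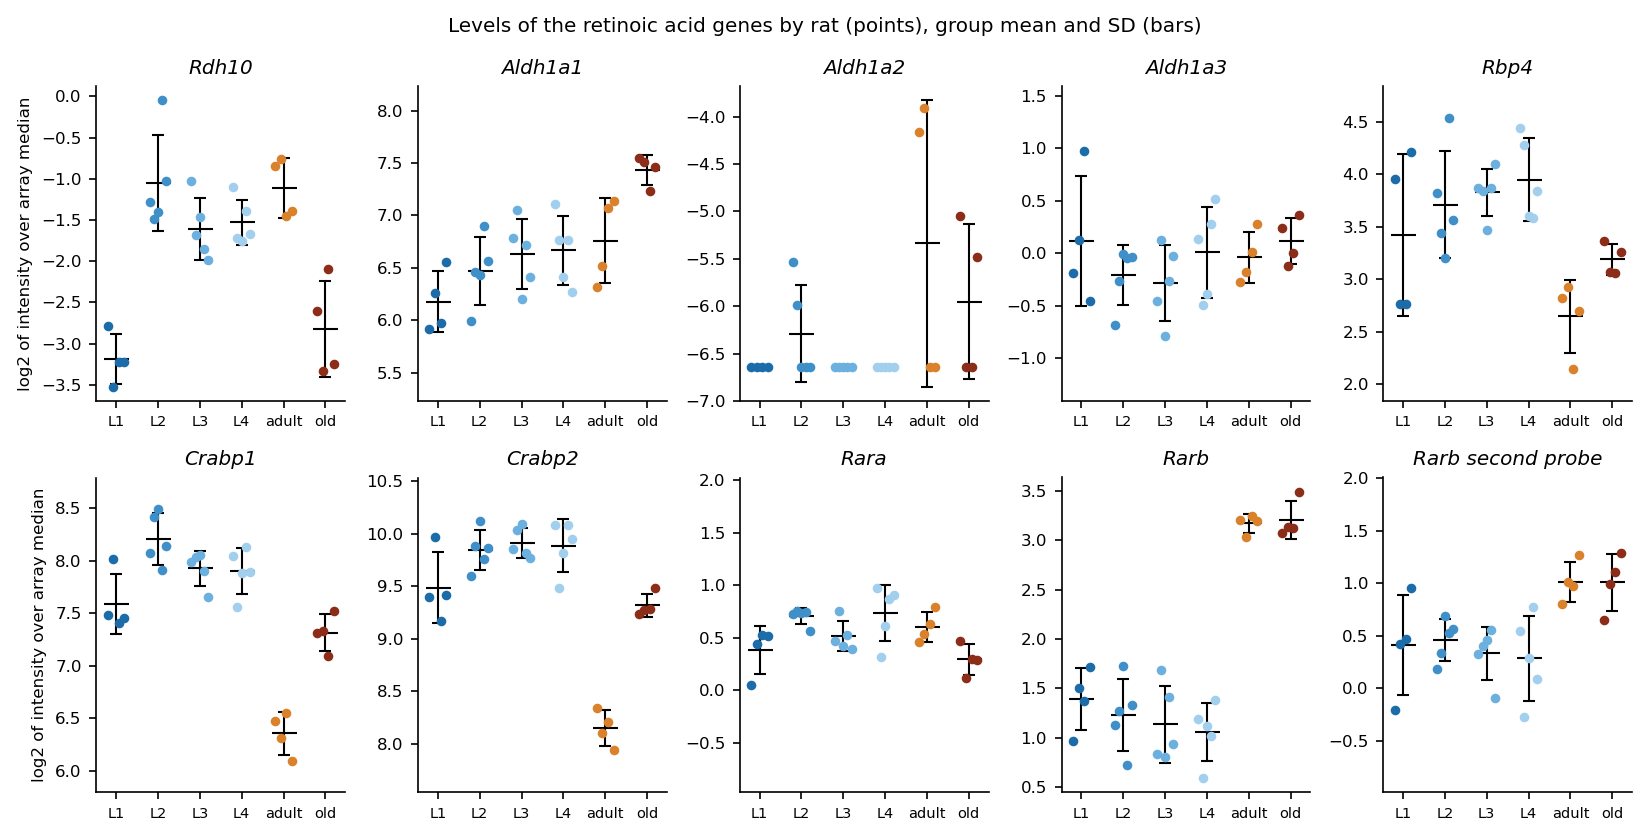
Log2 level of each member probe (y axis, log2 of intensity over the array median) in the 4 litters, the adult and the old rats (x axis). Points are rats, bars are the mean and SD over rats; Aldh1a2 was below background on all 35 arrays, Rarb was higher in every adult and old rat than in any pup, and Crabp1 and Crabp2 were lowest in the 4 adult rats.

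Rdh10, the dehydrogenase that makes retinaldehyde from retinol in the embryo, was dim, and was above background in all adult rats and in 14 of the 15 pups of L2, L3 and L4, but in no pup of L1 and no old rat. The level was -0.84, -0.77, -1.46 and -1.40 in the 4 adult rats, and -2.60, -3.33, -2.10 and -3.25 in the 4 old rats, none of whose 8 arrays was well above background. The 4 pups of L1 had -2.78, -3.52, -3.22 and -3.23, also not well above background. Pups of the other litters averaged -1.05 ± 0.59 in L2 (SD, n = 5), -1.61 ± 0.38 in L3 (SD, n = 5) and -1.53 ± 0.28 in L4 (SD, n = 5). The adult rats were above the old rats without overlap, at least 2.03-fold (adjusted p = 7.66e-05). That call was lost with the methods' t-test (adjusted p = 0.017). Newborn rats were 0.73 below adult rats (SE 0.24, adjusted p = 0.0116), which did not pass the test here and did in 14 of the alternatives. Newborn rats were at least 1.22-fold above old rats (log2 difference 0.98, SE 0.24, adjusted p = 0.00128), a call that was lost with the 4 litter means as replicates (adjusted p = 0.0944) and with the methods' t-test. L1 and old rats, both not well above background, differed by -0.37 (SE 0.31, adjusted p = 0.368). The probe was well above background on 0 of the 12 arrays of the scan day that held L1 and the old rats, and on 22 of the other 23. The adult arrays also split by scan day, with -1.514 to -1.277 on scan day 1 and -0.877 to -0.688 on scan day 2. Rdh10 was also the 1 member of the 9 called among litters (moderated F test, adjusted p = 2.58e-05, where 23.8% of all and 32% of expressed probes were called), and among L2, L3 and L4 alone the adjusted p was 0.339. What part the scan day had in these differences was not tested.

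Aldh1a1, a retinaldehyde dehydrogenase, was highest in old rats. The pups had 5.92 at the lowest, 6.46 at the median and 7.11 at the highest. The adult rats had 6.32, 6.52, 7.07 and 7.14, in or just above the range of the pups, and the old rats 7.55, 7.51, 7.23 and 7.46, all above every pup and every adult rat. The adult arrays split by scan day, with 7.045 to 7.213 on scan day 1 and 6.269 to 6.542 on scan day 2. The part of the scan day in the Aldh1a1 levels was not tested. Newborn rats were 1.93-fold lower than old rats (log2 difference -0.95, SE 0.17, adjusted p = 4.1e-05). L1, scanned on the same day as the old rats, was 2.39-fold lower (adjusted p = 4.17e-05), with levels of 5.92, 6.27, 5.98 and 6.55. The adult level was 0.68 lower than the old level (SE 0.22, adjusted p = 0.0138), which did not pass the test. It passed in 7 alternatives, among them the rat or the slide as a random block, and under quantile normalization it was -0.20 (adjusted p = 0.473). Before scaling by the array median, Aldh1a1 intensities were 9642-14549 on adult and 6108-11272 on old arrays. Newborn and adult rats differed by -0.27 (SE 0.17, adjusted p = 0.178). Rats also have a closely related gene, Aldh1a7; whether this probe also binds its transcript was not tested.

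Aldh1a2, the main retinoic acid-making enzyme of the early embryo, was above background on none of the 35 arrays. Its newborn-adult difference passed the test (log2 difference -1.22, SE 0.37, adjusted p = 0.00712) between values that were below background on both sides, so that no fold is given. The adult arrays of scan day 1 were all at the floor of -6.644, and only those of scan day 2 were above it, at -4.858 to -2.954. Aldh1a3, the form known from the developing nose and eye, was well above background on all arrays. It had -0.79, -0.05 and 0.98 at the lowest, median and highest pup. In adult rats it had -0.27, -0.17, 0.01 and 0.28, and in old rats 0.24, -0.12, 0.01 and 0.36, so that the 3 groups overlapped. Newborn rats differed from adult rats by -0.05 (SE 0.21, adjusted p = 0.86) and from old rats by -0.21 (SE 0.21, adjusted p = 0.422), and adult from old rats by -0.16 (SE 0.27, adjusted p = 0.687). The pups of L1 alone spanned -0.45 to 0.98 in Aldh1a3, wider than the adult and old rats together.

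Rbp4, the plasma carrier of retinol, was highest in newborn rats. The pups had 2.76, 3.84 and 4.54 at the lowest, median and highest, the adult rats 2.82, 2.93, 2.14 and 2.70, and the old rats 3.37, 3.07, 3.06 and 3.26. Newborn rats were 2.12-fold above adult rats (log2 difference 1.08, SE 0.23, adjusted p = 0.000341), although the lowest pups overlapped with the adult rats. The old rats lay within the range of the pups, and the newborn-old difference of 0.54 (SE 0.23) did not pass the test (adjusted p = 0.0564), nor did that of adult and old rats, -0.54 (SE 0.30, adjusted p = 0.156), although those 2 groups did not overlap. Pups differed widely within a litter, with a pooled SD of 0.49.

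Crabp1 and Crabp2, small carriers of retinoic acid in the cytosol, moved together with age. In Crabp1 the pups had 7.41, 7.99 and 8.50 at the lowest, median and highest, the adult rats 6.47, 6.31, 6.55 and 6.09, and the old rats 7.32, 7.33, 7.10 and 7.52. In Crabp2 the pups had 9.17, 9.86 and 10.12, the adult rats 8.34, 8.11, 8.21 and 7.94, and the old rats 9.24, 9.27, 9.28 and 9.48. In both genes every adult rat was below every pup and every old rat, and the old rats overlapped with the lowest pups. Newborn rats were above adult rats by 1.55 in Crabp1 (SE 0.12, adjusted p = 5.18e-11) and by 1.64 in Crabp2 (SE 0.12, adjusted p = 1.51e-11). Above old rats they were 1.51-fold in Crabp1 (adjusted p = 0.000147) and 1.38-fold in Crabp2 (adjusted p = 0.0014). Adult rats were below old rats by 1.95-fold in Crabp1 (adjusted p = 1.41e-05) and 2.25-fold in Crabp2 (adjusted p = 7.7e-07). Relative to the shift of all probes, which was -0.13 between adult and old rats, these last differences were -0.83 and -1.04. Quantile normalization kept the calls but gave smaller log2 differences, in Crabp2 0.91 between newborn and adult and -0.53 between adult and old rats, and in Crabp1 1.096 and -0.51. Before scaling by the array median, Crabp1 intensities were 7530-22316 on pup, 4936-16450 on adult and 5592-9136 on old arrays. Those of Crabp2 were 27310-79196, 17352-48079 and 24461-34135, so that the groups overlapped. L1 and old rats, scanned on the same day, differed by 0.27 in Crabp1 (SE 0.15, adjusted p = 0.153) and 0.17 in Crabp2 (SE 0.15, adjusted p = 0.39), with 4 pups against 4 rats.

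The Crabp1 probe is shown as the letters behind these levels. Its 60 bases are placed over chr8:58339877-58344185 of rat build rn3 by the array's design, a span longer than the probe, and 1 of its reading frames has no stop codon.
Crabp1: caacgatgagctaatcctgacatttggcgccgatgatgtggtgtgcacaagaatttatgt
The probe of Crabp2 lies at chr2:179984104-179984163. Among litters Crabp1 was lowest in L1, at 7.59 ± 0.29 (SD, n = 4), and highest in L2, at 8.21 ± 0.24 (SD, n = 5), which did not pass the test (adjusted p = 0.0114). The adult rats' A and B arrays differed by up to 0.54 in Crabp1 and 0.57 in Crabp2, less than the newborn-adult differences. Those of the old rats differed by up to 0.08 and 0.18. The newborn-old difference in Crabp2, 0.465, was less than the largest adult gap in that gene.

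**Figure D2:**
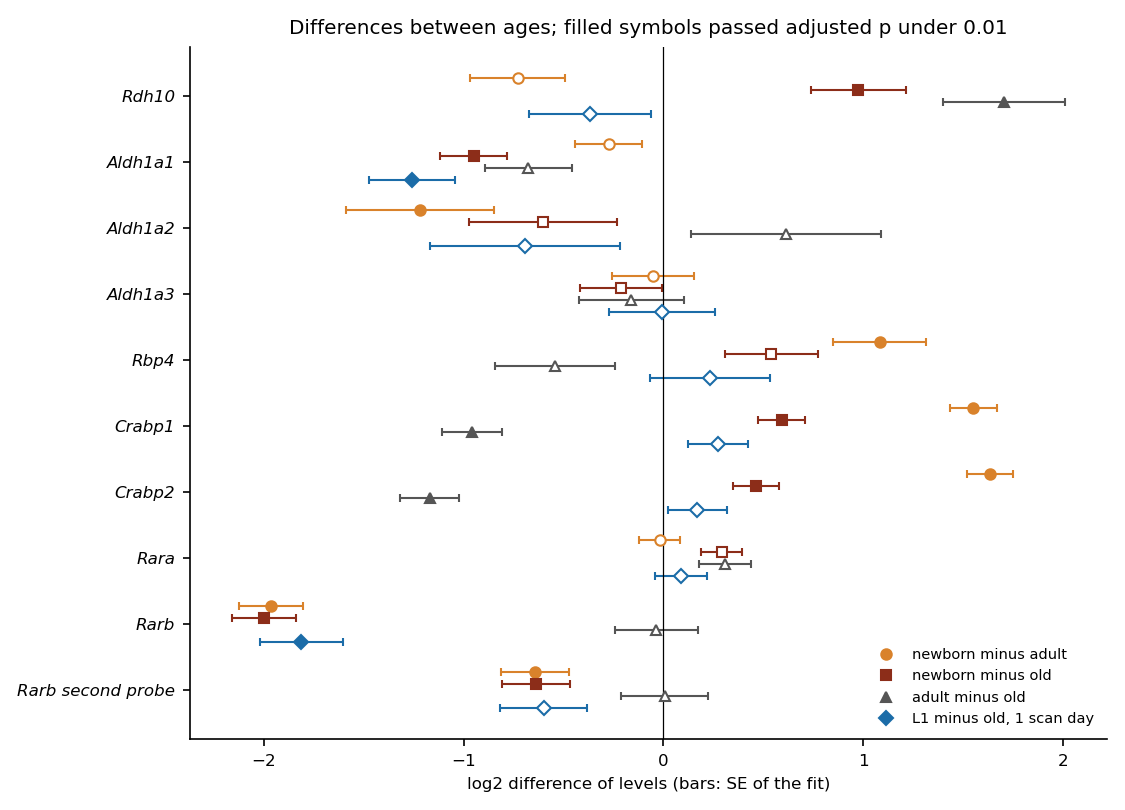
Log2 difference (x axis, difference of mean log2 levels) of each member probe (y axis), with a colour and symbol for each of the newborn-adult, newborn-old, adult-old and L1-old differences. Points are estimates, bars their SE, and filled points have an adjusted p under 0.01; the Rarb difference was -1.96 between newborn and adult and -1.999 between newborn and old rats.

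Of the receptors, Rarb differed between pups and older rats, and Rara passed the test in none of the 4 comparisons. Rara had 0.05, 0.57 and 0.98 at the lowest, median and highest pup, 0.46, 0.54, 0.63 and 0.79 in the adult rats and 0.48, 0.12, 0.30 and 0.29 in the old rats, and the groups overlapped. The newborn-adult difference in Rara was -0.02 (SE 0.10, adjusted p = 0.905) and the newborn-old difference 0.29 (SE 0.10, adjusted p = 0.0194). Adult and old rats differed by 0.31 (SE 0.13, adjusted p = 0.0617).

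Rarb had 0.59, 1.19 and 1.73 at the lowest, median and highest of the 19 pups. The adult rats had 3.20, 3.03, 3.25 and 3.20 and the old rats 3.08, 3.13, 3.12 and 3.49. Pups and older rats did not overlap, and adult and old rats did. The group means were 1.21 ± 0.14 in newborn (SD, n = 4 litter means), 3.17 ± 0.09 in adult (SD, n = 4) and 3.21 ± 0.19 in old rats (SD, n = 4). Newborn rats were lower than adult rats (log2 difference -1.96, SE 0.16, adjusted p = 2.61e-10) and than old rats (-1.999, SE 0.16, adjusted p = 3.05e-10). Adult and old rats differed by -0.04 (SE 0.21, adjusted p = 0.932). L1, scanned on the same day as the old rats, was 3.51-fold lower than they were (adjusted p = 1.68e-07), with pups at 0.97, 1.504, 1.38 and 1.72. The litters ranged from 1.06 in L4 to 1.39 in L1 (adjusted p = 0.516).

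The second Rarb probe, with the lower mean level, was called in the same direction against adult and old rats. It had -0.28, 0.42 and 0.95 at the lowest, median and highest pup. The adult rats had 0.80, 1.01, 0.97 and 1.27, and the old rats 0.64, 0.99, 1.11 and 1.29, overlapping with the highest pups. The newborn-adult difference on this probe was -0.64 (SE 0.17, adjusted p = 0.00238) and the newborn-old difference -0.64 (SE 0.17, adjusted p = 0.00282). With the mean of both probes the Rarb difference was -1.30 between newborn and adult and -1.32 between newborn and old rats, both still called. In L1 against old rats the second probe's was -0.60 (SE 0.22, adjusted p = 0.0302), which did not pass the test.

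The probes of both receptors are printed because the results on them differ. The first Rarb probe lies at chr15_random:319377-319436 of rn3 and the second at chr15_random:324128-324187; the Rara probe is placed over chr10:87764271-87764471. Both printed probes have at least 1 reading frame with no stop codon.
Rarb: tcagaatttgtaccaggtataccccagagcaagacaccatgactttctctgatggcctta
Rara: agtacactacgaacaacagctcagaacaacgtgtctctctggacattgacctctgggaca
Rarb is itself known as a gene that retinoic acid switches on, so its promoter was searched for the motifs that these receptors bind. The motif AGGTCA and its variants, which are GGGTCA as well as AGTTCA and further GGTTCA, were looked for on both strands, as pairs in the same orientation with 1, 2 or 5 bases between them, in windows of 300 bases, 250 before to 50 after the annotated start (RefSeq, GRCr8). Such a pair was found in 0.777% of 33469 promoters, with 5 bases between them in 0.382%, while 44.4% held at least 1 single motif. Of the 8 member promoters in the table, Rarb alone held a pair, at base 25 after its annotated start, here printed over chr15:11336410-11336439 on the plus strand with the motifs in capitals.
Rarb promoter: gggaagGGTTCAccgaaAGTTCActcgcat
This match of letters is a description and was not tested as a site.

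The summed markers of several cell types moved with age beside these genes. Beside Rarb, which rose from pups to older rats, the 5 markers of mature olfactory sensory neurons were all called lower in newborn than in adult and old rats. The 3 measured markers of sustentacular cells (Cyp2g1, Ugt2a1 and Cyp2a3a), which support the neurons, had a summed intensity of 562-1475 times the array median in pups, 2367-2804 in adult and 3374-3993 in old rats, and all 3 were called lower in newborn rats. Beside Crabp1 and Crabp2, which were higher in pups, the 4 markers of immature neurons summed to 1161-2539 in pups, 816-981 in adult and 689-881 in old rats, and those of dividing cells to 96.9-161, 20.7-24.8 and 12.4-15.7. The fibroblast markers summed to 2647-6514 in pups, 1986-3199 in adult and 361-697 in old rats. The 4 skeletal muscle markers had 14.4-406 in pups, 0.74-1.76 in adult and 0.49-0.90 in old rats. The 4 chondrocyte markers had 66.8-323, 17.2-20.0 and 12.6-16.0, in the same order of groups. Those of endothelium had 25.1-80.2, 13.6-15.4 and 10.0-12.9, and those of macrophages 35.6-88.3, 21.3-36.4 and 24.2-31.1. Osteoblast markers summed to 629-2230, 732-1336 and 272-490. In old rats, where Crabp1 and Crabp2 were above the adult level, the markers of immature neurons and of dividing cells had medians of 770 and 13.2, against 877 and 22.3 in adult rats. The 2 measured red cell markers (Hbb and Alas2) summed to 238-970 in pups, 51.7-109 in adult and 166-379 in old rats, the order of the Crabp genes, and both were called lower in adult than in old rats. The 4 measured markers of basal progenitors had that order too, with medians of 84.6 in pups, 54.7 in adult and 64.4 in old rats. Of these 4, 1 was called between adult and old rats, and it was higher in adult rats. Between adult and old rats the 2 ciliated cell markers went from 328-444 to 572-629, with neither called, and the 3 markers of olfactory nerve glia from 22.0-28.7 to 37.4-52.0, with 1 called. Beside Aldh1a1, highest in old rats, the 3 measured markers of Bowman glands (Aqp5, Obp1f and Obp3) summed to 105-1036 in pups, 220-253 in adult and 504-646 in old rats. Of these 3, 1 was called lower in newborn than in old rats and 1 lower in adult than in old rats. The summed markers of mature olfactory sensory neurons and of sustentacular cells were also highest in old rats. The part of these cell types in the results was not tested.

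Of 54 other retinoid genes, 46 had a probe. Between newborn and adult rats 13 of the 46 were called higher and 12 lower (of all probes, 27% and 19.9%), between newborn and old rats 12 higher and 16 lower (20.6% and 22.8%), and between adult and old rats 2 higher and 11 lower (11.8% and 20.6%). With arrays scaled by the 75th percentile, the adult-old split was 4 higher and 11 lower. The median log2 difference of the 46 was 0.08, -0.14 and -0.22, and that of all probes 0.10, -0.04 and -0.13. Genes with several probes were judged by the brightest. Of the genes named below, Adh1, Adh4, Dhrs3, Dhrs4, Cyp26b1, Ncoa3, Ncor1, Nrip1, Tgm2, Rai14 and Nr2f1 were also called among litters (moderated F test). Of all probes, 23.8% were called among litters. The newborn means of these genes thus pool litters that differed, as in Tgm2, with 6.935 in L2 and 8.372 in L4.

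Of the 4 other receptors, 3 were called lower in newborn than in adult rats and 4 lower than in old rats, where 19.9% and 22.8% of all probes were. Rarg, the third retinoic acid receptor, was 2.79-fold lower in newborn than in adult rats (adjusted p = 8.35e-09) and 2.84-fold lower than in old rats (adjusted p = 9.25e-09), the pups without overlap; with normexp the log2 differences were -0.59 and -0.58. Rxra was 1.31-fold and Rxrb 1.20-fold lower than in adult rats (Rxra not called with normexp, adjusted p = 0.272), and 1.46-fold and 1.33-fold lower than in old rats. Rxrg was 1.98-fold lower than in old rats (adjusted p = 0.000754) and differed from adult rats by -0.22 (adjusted p = 0.45). No receptor of the 4 was called between adult and old rats. Retinoid X receptors are the partners that retinoic acid receptors need on DNA.

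Of the 13 enzymes acting on retinol and retinaldehyde, 5 were lower and 3 higher in newborn than in adult rats, and 7 lower and 1 higher than in old rats, where 46.8% and 43.5% of all probes and 62.1% and 57.1% of expressed probes were called. The alcohol dehydrogenase Adh1, which oxidises retinol, was the farthest apart, 10.4-fold lower in newborn than in adult rats (adjusted p = 3.21e-13) and 23.0-fold lower than in old rats (adjusted p = 3.24e-15), and 2.20-fold lower in adult than in old rats (adjusted p = 0.000543). L1 was 42.2-fold lower than old rats on the same scan day. Adh4 was 1.85-fold and Adh7 2.32-fold lower in newborn than in old rats, and Adh4 was 1.93-fold lower in adult than in old rats on its brightest probe, while its other probe was well above background on 1 of the 35 arrays. Dhrs3, a reductase that turns retinaldehyde back into retinol, was 1.47-fold lower in newborn than in adult and 2.18-fold lower than in old rats. Rdh11 was 1.39-fold higher in newborn than in adult rats but 1.49-fold lower than in old rats, and 2.08-fold lower in adult than in old rats. Dhrs4 was 1.49-fold higher in newborn than in adult rats and 1.53-fold lower in adult than in old rats. These calls of Dhrs4, and that of Adh1 between adult and old rats, were lost under quantile normalization and with normexp, with adjusted p up to 0.86 and 0.624 for Dhrs4 and 0.055 for Adh1.

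Dimmer enzymes gave bounds. Rdh2 was well above background on none of the 19 pup arrays, and was at least 2.56-fold lower in newborn than in adult rats and at least 3.24-fold lower than in old rats. Rdh5 was at least 2.31-fold lower in adult than in old rats; it was also called lower in newborn than in old rats (adjusted p = 1.59e-05), being well above background on 3 of 19 pup and 7 of 8 old arrays. Rdh13 was at least 1.42-fold lower in newborn than in adult rats. Rdh7 and Dhrs7 were also called against adult rats and Rdh7 against old rats, but no fold is given, since Dhrs7 was below background in both groups and the bound of Rdh7 was under 1.

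**Figure D3:**
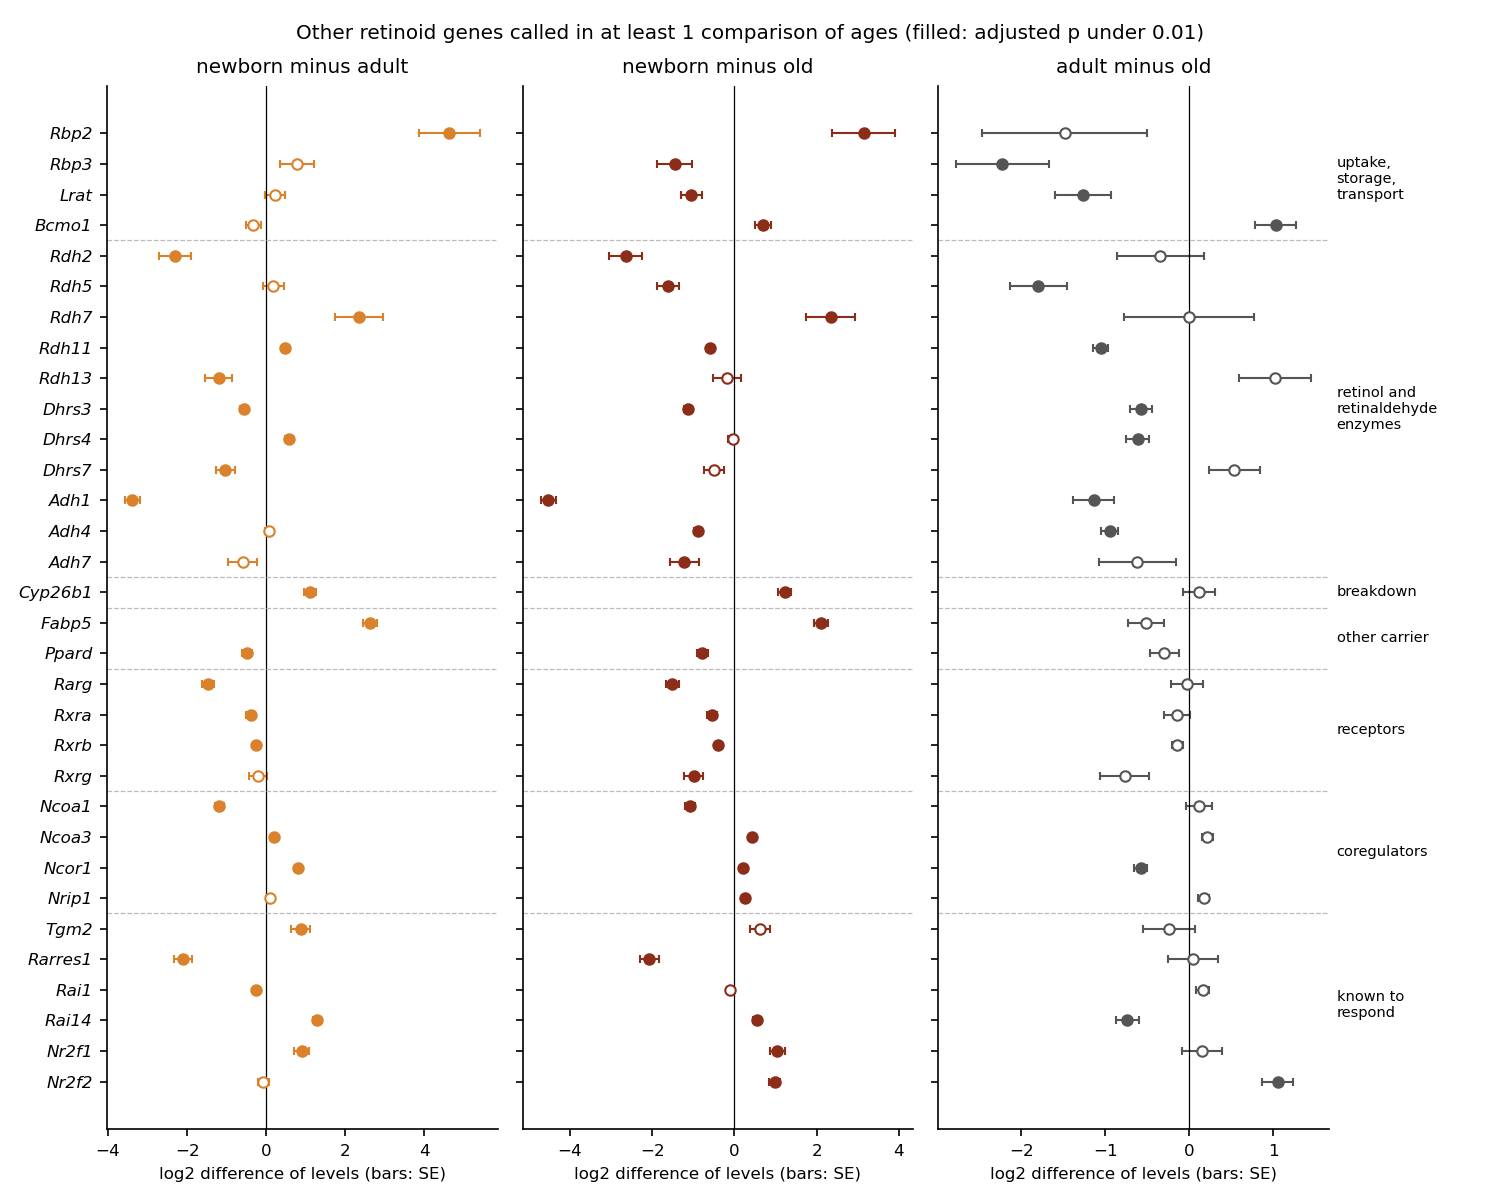
Log2 differences (x axis) of the retinoid genes named here that were called in at least 1 age comparison (y axis), in 3 panels, for the newborn-adult, newborn-old and adult-old differences. Points are estimates with SE bars, and filled points have an adjusted p under 0.01; Adh1 was farthest to the left in the newborn panels, with -3.38 and -4.52.

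Among genes of retinol uptake and storage, Rbp2 in newborn rats was at least 1.66-fold above adult rats and at least 1.44-fold above old rats. Its probe was above background on 8 of 19 pup, 0 of 8 adult and 0 of 8 old arrays, so the newborn mean includes values below background. Lrat, which stores retinol as an ester, was 2.07-fold lower in newborn and 2.40-fold lower in adult than in old rats. Rbp3 was at least 2.58-fold lower in adult than in old rats; it was also called lower in newborn than in old rats (adjusted p = 0.00638), being well above background on 7 of 19 pup and 7 of 8 old arrays. Bcmo1, which cleaves beta-carotene, was called higher in newborn and in adult than in old rats on its brightest probe (adjusted p = 0.00333 and 0.0014), which was well above background on 17 of 19 pup, 7 of 8 adult and 1 of 8 old arrays. The Rbp2 calls were lost with normexp and with a floor of 0.1, those of Rbp3 and Lrat with the mean of all probes of the gene.

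Cyp26b1, which breaks retinoic acid down, was 2.15-fold higher in newborn than in adult rats (adjusted p = 1.08e-06) and 2.33-fold above old rats (adjusted p = 3.06e-07). L1 was 1.68-fold above old rats on their common scan day. The litters ranged from 4.067 in L1 to 5.022 in L2 (moderated F test, adjusted p = 0.00223). Fabp5, a fatty acid carrier that can bring retinoic acid to the receptor Ppard, was 6.16-fold higher in newborn than in adult rats and 4.31-fold higher than in old rats, while Ppard was 1.40-fold and 1.72-fold lower.

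Coregulators of these receptors were called in both directions. The coactivator Ncoa1 was 2.27-fold and 2.10-fold lower in newborn than in adult and old rats. Ncoa3 was 1.15-fold and 1.34-fold higher, Ncor1 1.73-fold and 1.16-fold higher, and Nrip1 1.20-fold higher against old rats. The corepressor Ncor1 has 5 probes, which moved in opposite directions, and its brightest was 1.49-fold lower in adult than in old rats. The call of Ncoa3 against adult rats was lost with the 75th percentile and quantile scalings and with the mean of its probes. Against old rats, the calls of Ncoa1 (adjusted p = 0.49) and Ncoa3 (adjusted p = 0.0738) were lost with the mean of their probes. That of Ncor1 against old rats was lost with the 75th percentile and with the mean of its probes (adjusted p up to 0.25). The adult-old call of Ncor1 was lost under quantile normalization. Of 10 genes known to respond to retinoic acid, Rarres1 was 4.32-fold and 4.18-fold lower in newborn than in adult and old rats, whereas Rai14 was 2.44-fold and 1.46-fold higher, and 1.67-fold lower in adult than in old rats. Nr2f1 was 1.86-fold and 2.07-fold higher in newborn rats, and Nr2f2 1.97-fold higher in newborn and 2.07-fold higher in adult than in old rats. Rai1 was 1.19-fold lower in newborn than in adult rats. Tgm2 was 1.83-fold higher in newborn than in adult rats (log2 difference 0.87), but its call was lost under the 75th percentile, quantile and normexp scalings, with a log2 difference down to 0.23 (adjusted p = 0.435). Both Nr2f1 calls were lost with the mean of its probes. Genes that respond to retinoic acid were called in both directions.

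Among the 19 pups, the members were compared after subtracting each litter's mean. These correlations describe 1 array per pup and share array quality and tissue make-up, and no test is given. Crabp1 and Crabp2 varied together, with Pearson r = 0.89 (Spearman rho 0.91, r without the 2 farthest pups 0.81). Rara and Rarb had r = 0.64 (rho 0.58, r 0.47 without the 2 farthest pups), and Rbp4 and Crabp1 r = -0.60 (rho -0.59, -0.52). Both Rarb probes had r = 0.51 (rho 0.49, 0.62).

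**Figure D4:**
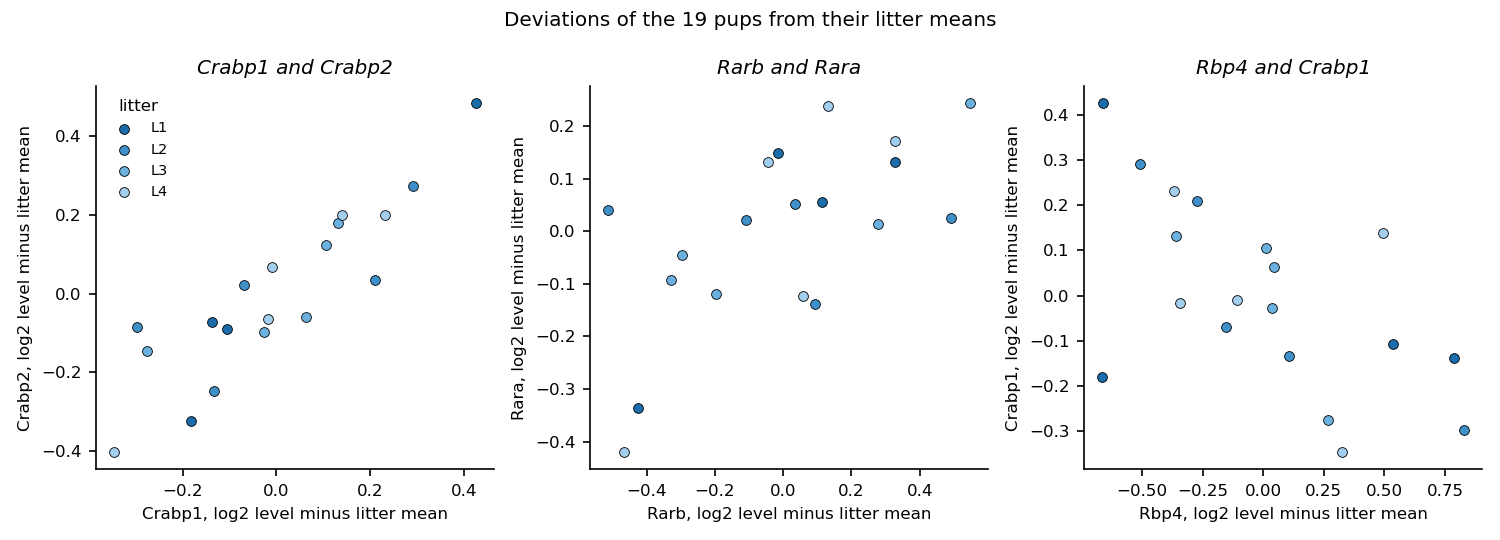
Deviation of each of the 19 pups from the mean of its litter (log2 level, both axes) for Crabp1 and Crabp2, Rarb and Rara, and Rbp4 and Crabp1. Each point is a pup; r is 0.89, 0.64 and -0.60, and the pairs with the highest and lowest r were chosen after the values were seen.

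Among 11322 named probes above background in all pups, the pattern of Rarb was most like Ugt2a1 (r = 0.94), a marker of sustentacular cells, then Sesn3 (0.94) and Tubgcp5 (0.92). That of the second Rarb probe was most like Ogt (0.94), Pcsk4 (0.92) and Igf2r (0.91). Crabp1 was most like RSB-11-77 (0.97), Abcd2 (0.96) and Kntc1 (0.96), and Crabp2 most like Lsm8 (0.93), Rpa3 (0.92) and the odorant receptor Olr722 (0.92). Among the nearest to Aldh1a1 were Ptgs1 (0.93) and Bucs1 (0.90), and the nearest to Aldh1a3 were Trim63 (0.90), Tparl (0.88) and Cdh3 (0.87). Those of Rbp4 were Rnd1 (0.84), the mucin Muc5ac (0.81) and Pla2g10 (0.80), and those of Rara were Tead2 (0.89), Mtr (0.88) and March8 (0.86). No gene was among the most like of more than 1 probe.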

How the data were processed

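RNA of the olfactory epithelium of 27 Brown Norway rats was hybridised to 35 Agilent arrays with 1 dye. The authors deposited Feature Extraction output (per the file headers 9.5.1.1 for the adult arrays and 9.5.3.1 for the others), an intensity per spot corrected for local background and for spatial trends; deposited flag columns (other values) mark spots above background, outliers and saturation. The authors also deposited a ratio matrix from GeneSpring, divided by array median and probe constant, used as an alternative only.

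Control spots and outlier-marked spots were left out (45018 spots, 41012 probes; 890 probe values were missing), spots of a probe averaged, each array divided by its median, a floor of 0.01 set and the log2 taken. limma 3.58.1 (R 4.3.3; lmFit and eBayes with trend) fitted 6 groups over all probes, newborn being the mean of the 4 litters, with Benjamini-Hochberg adjustment at 0.01; litters were compared by its moderated F test. A bound sets the bright group's mean against the lowest signal well above background on each array of the dim group, or the probe's own signal where that was higher. Python 3.11.15 drew the figures. In simulated data the fit was tested for recovery of known changes.

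The genes, gene lists and tests were chosen with earlier results of these data known. Named were every probe of the 9 members, the retinoid genes called in at least 1 age comparison and the 3 symbols most like each member; a gene was judged by its probe of highest mean. Median scaling assumes that the median probe is equal at all ages. Some results that this rule names are not reported here.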

Additional observations from a re-analysis of the deposited data

Results flagged for a closer look

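In 3 of the 54 sets of one gene's rats in a group that were tested, a rat lay apart from the others of its group, where chance alone gives about 1 in 20. Crabp1 of rat 10 of L1 had a log2 level of 8.015, the highest of that litter. Rara of rat 25 of L2 had 0.568, the lowest of its litter. Rarb of old rat 20 had 3.49, the highest of the old rats. Aldh1a2, below background on all arrays, was not tested this way.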

How the results depend on the processing

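Of 1938 recomputed values of the members, 1856 kept their direction and side of the threshold, 21 lost and 42 gained a call and 19 changed sign; of 577 values of the other retinoid genes, 532, 40, 0 and 5. The calls of Rarb, Crabp1, Crabp2 and Aldh1a1 against old rats, of Rbp4, Crabp1, Crabp2 and Rarb against adult rats, and of Crabp1 and Crabp2 between adult and old rats held in every alternative run. The Aldh1a2 call was lost in 14 alternatives, and that of Rdh10 between newborn and old rats in 5, namely the methods' t-test, litter means as replicates, without L2, without old rat 18 and without old rat 20. The Rdh10 call between adult and old rats was lost with the methods' t-test only. Between adult and old rats 5 members were called with every array as a sample. Among litters 2 were called over probes expressed in at least 1 group, 1 to 3 when each rat was left out, and with L2, L3 and L4 alone limma called 0 (1 at an unadjusted p under 0.05). Without L1, newborn and old rats differed in 7 members, Rbp4 and Rara added. Quantile normalization called 4 members lower and 3 higher in newborn than in adult rats (Rdh10 and Aldh1a1 added), and 1 higher and 2 lower in L1 than in old rats; the adult-old split of retinoid genes was 3 higher and 6 lower, with normexp 4 and 8. The cause was not tested.

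Signs turned only in values that did not pass the test, or with the mean of all probes of a gene. Newborn against adult, Aldh1a3 became 0.012 without L3 (-0.129 to 0.055 when each rat was left out), Rara 0.05 without L1 and 0.005 without L3 (-0.065 to 0.044) and Ncor1 -0.19 with the mean of probes. Newborn against old, Bcmo1 became -0.057 with the mean of probes. Adult against old, Rarb became 0.046 with the 75th percentile, 0.052 with quantile normalization and 0.14 with normexp (-0.078 to 0.06), and with the mean of probes Bcmo1 became -0.26, Adh4 0.49 and Ncor1 0.28. L1 against old, Aldh1a3 became 0.064 with the 75th percentile and 0.056 with normexp (-0.293 to 0.184), and Rbp4 ran from -0.029 to 0.455. Values near background limit Rdh10 and Aldh1a2. No paired analysis was possible because each rat number belongs to 1 rat and the groups share none.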
